A study of Mus musculus with 12 samples.

Results

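The genes described here are 9 enzymes of fatty acid oxidation, Cpt1a, Cpt2, Acadvl, Acadl, Acadm, Acads, Hadha, Hadhb and Acaa1a, picked by name from a table of 55586 mouse genes. All 9 were in the table, and all 9 were among the 13474 genes that had enough reads to be tested. The libraries are RNA sequencing of peritoneal macrophages from mice, phagocytes of the abdominal cavity, cultured in serum-containing medium, in 4 groups of 3 libraries. Cells were untreated (control), given interferon gamma (IFN-γ, written IFN y in the labels), given Remodelin hydrobromide, or given Remodelin hydrobromide followed by IFN-γ. Remodelin is an inhibitor of the RNA acetyltransferase NAT10, and IFN-γ is the classical activating cytokine of macrophages. No strain, age, dose, time, animal or culture is stated in the labels used here, so p-values measure the spread between libraries, which may be technical.

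Beta-oxidation shortens fatty acids in the mitochondrial matrix. Long-chain fatty acids enter as carnitine esters, made by CPT1 on the outer membrane, a step that malonyl-CoA inhibits, and turned back into acyl-CoA by CPT2 on the inner membrane. Each cycle then runs through an acyl-CoA dehydrogenase chosen by chain length, a hydratase, a second dehydrogenase and a thiolase, and for long chains the last steps are carried out by the trifunctional protein of HADHA and HADHB. In macrophages this pathway is best known from alternatively activated and lipid-laden cells, while classically activated cells are known for glycolysis. Acaa1a differs from the rest in place: it encodes a thiolase of peroxisomes, which shorten very long chains, so it is described on its own below, and the mitochondrial counterpart Acaa2 stands among the other genes of the pathway.

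Libraries held 15917454 to 19418665 counts. Members had 259 reads (Cpt2) to 3197 reads (Hadha) in a library, far above the floor of 3 counts. Macrophage markers summed to 14967 to 25236 CPM (counts scaled to a common library total, with TMM normalisation), and 7 of 8 were tested. Most of that sum was Lyz2, at 12665 to 23170 CPM. Of the markers of resident macrophages in the list, Timd4 was under 1 CPM in every library and Gata6 was at 9.54 to 19.5 CPM. Libraries differed in how counts followed the GC content of transcripts: Spearman correlations of their deviations with GC ran from 0.123 to 0.55 in control, -0.168 to 0.218 in IFN-γ, -0.373 to 0.264 in Remodelin and -0.69 to -0.115 in the libraries given both agents, of which library 1 was the lowest. This ordering touches several of the enzymes, and values with the trend removed are given beside them. Because the trend followed the groups, removing it can also remove part of a treatment effect, and these cannot be told apart. In bulk RNA, fewer cells of a type and less RNA per cell cannot be told apart.

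Levels were compared between enzymes on the deposited FPKM scale, which divides reads by gene length. Acadl, the long-chain dehydrogenase, was the highest with a mean of 49.9 ± 5.34 FPKM over the 12 libraries (SD), followed by the short-chain dehydrogenase Acads at 40.1 ± 7.17 and Acaa1a at 25.7 ± 4.46. Hadha stood at 18.1 ± 0.94, Acadvl at 15.1 ± 2.11 and Hadhb at 10.5 ± 1.60. The lowest were Cpt2 at 8.43 ± 0.97, Cpt1a at 7.97 ± 0.82 and Acadm at 7.49 ± 1.68. Acads exceeded Acaa1a, Acaa1a exceeded Hadha, and Acadvl exceeded Hadhb in 12 of 12 libraries, and Hadha exceeded Acadvl in 11. Neighbours that did not separate were Cpt2 and Cpt1a, with Cpt2 higher in 8 of 12, while Acadl over Acads, Hadhb over Cpt2 and Cpt1a over Acadm each held in 10. Even Acadm had more FPKM than 68.2% of tested genes, and Acadl more than 92.0%. This order depends on the gene length used. The lengths behind FPKM were 8730 bases for Hadha, 3913 for Acadm, 7642 for Cpt1a and 6595 for Hadhb, against longest annotated transcripts of 4017, 2047, 4317 and 4388 bases. Rescaled to the longest transcript, Hadha had 39.3 ± 2.04 FPKM and stood above Acaa1a at 30.9 ± 5.36, while Acadm at 14.3 ± 3.21 and Cpt1a at 14.1 ± 1.45 stood above Cpt2, the lowest at 8.50 ± 0.98. Acadl and Acads remained the highest on that scale, at 52.2 ± 5.59 and 45.0 ± 8.05.

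**Figure D1:**
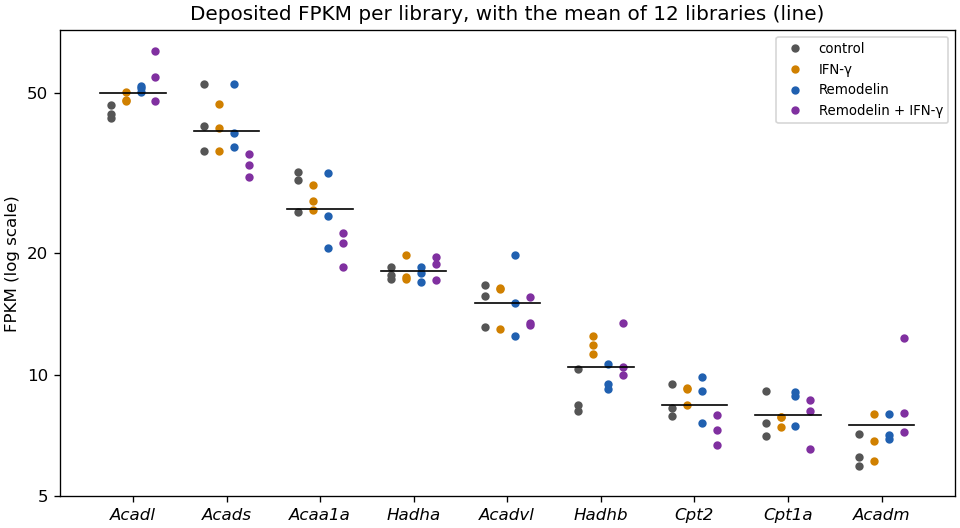
Deposited FPKM (log axis) of each enzyme in every library, coloured by group, with the mean of 12 libraries as a line. Acadl and Acads sit at the top, near 50 and 40 FPKM, and Cpt2, Cpt1a and Acadm share the lowest range on this scale.

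None of the 9 enzymes passed the test in any of 7 comparisons (edgeR quasi-likelihood test over all tested genes, Benjamini-Hochberg adjusted p under 0.05). Averaged over both levels of IFN-γ, Remodelin changed 0 of 9, where 7.04% of all tested genes were called. The median log2 fold change of the members was -0.00, and that of all tested genes was 0.03. Without IFN-γ, Remodelin changed 0 of 9 and 0.846% of all genes (0.653% lower), and in the presence of IFN-γ it changed 0 of 9 and 0.364% of all genes (0.223% lower). IFN-γ changed 0 of 9 and 0.0148% of all genes without Remodelin, 0 of 9 and 0% on top of Remodelin, and 0 of 9 and 0.00742% on average. The interaction of both agents was called for 0 of 9 and 0.00742% of all genes. IFN-γ thus called almost no gene in these libraries, and the absence of calls among the enzymes is read against that. DESeq2 and limma-voom also called 0 of 9 in each comparison. An unadjusted p under 0.05 was reached by 1 member for the average Remodelin effect (26.1% of all genes) and for Remodelin in the presence of IFN-γ (16.2%), Acaa1a in both cases. Hadhb reached it for IFN-γ against control (5.37%) and for the average IFN-γ effect (12.9%), and 0 members did for Remodelin against control (12.7%), for IFN-γ on top of Remodelin (7.74%) and for the interaction (2.3%).

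The 95% intervals bounded the changes more tightly in some comparisons than in others. For the average Remodelin effect, the 95% intervals of all 9 enzymes lay inside a 1.5-fold change in either direction, which held for 50.1% of all tested genes. The bounds farthest from 0 were -0.54 on the log2 scale for Acaa1a and 0.56 for Acadm. For the average IFN-γ effect 9 of 9 also lay inside 1.5-fold, against 60.2% of all genes. For Remodelin against control it was 9 of 9 (31.7% of all genes), and with IFN-γ present it was 5 of 9 (26.9%), the others being Cpt2, Acadm, Acads and Acaa1a. It was 8 of 9 for IFN-γ against control (39.9%, all but Hadhb), 6 of 9 for IFN-γ on top of Remodelin (34.2%) and 3 of 9 for the interaction (14.2%). Inside 2-fold lay 9 of 9 in each of the 7 comparisons, against 61.4% (interaction) to 89.3% (average IFN-γ effect) of all genes. These intervals are per gene, are not adjusted for their number, and assume the spread of these libraries. Each of the 9 enzymes had more FPKM than at least 68.2% of tested genes, and the shares of all genes were not matched for level.

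**Figure D2:**
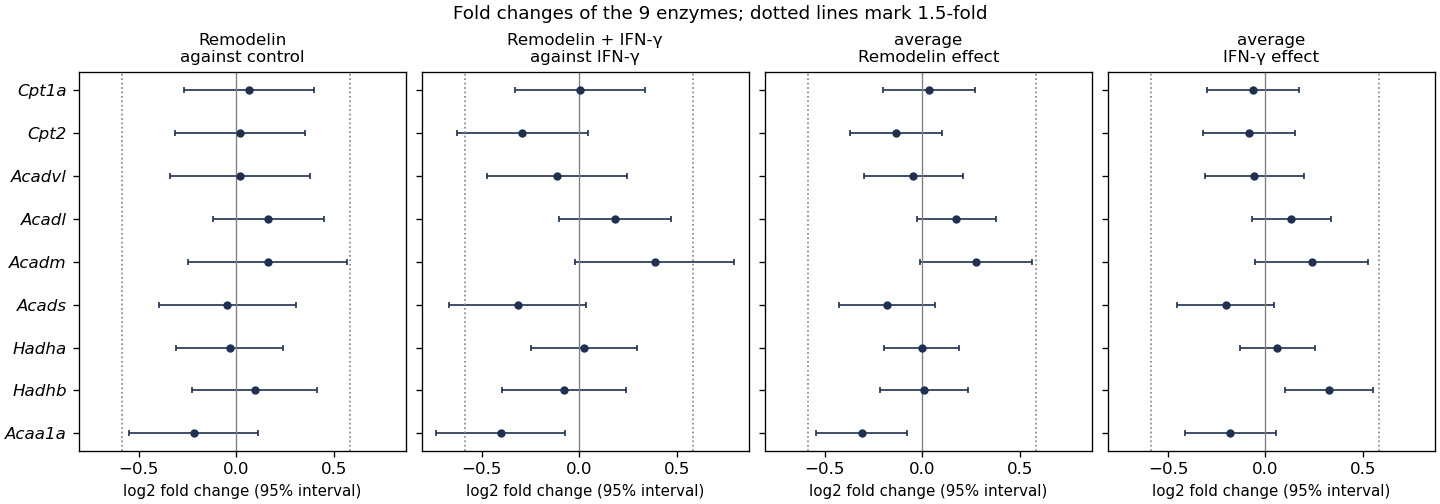
Log2 fold changes of the 9 enzymes with 95% intervals in 4 comparisons, with dotted lines at 1.5-fold. Intervals in the panels of both average effects and of Remodelin against control stay between the dotted lines, and in the panel of both agents against IFN-γ alone those of Cpt2, Acadm, Acads and Acaa1a cross them.

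Cpt1a, the rate-limiting enzyme of the carnitine shuttle, was at 70.9, 58.7 and 54.0 CPM in the control libraries, 60.8, 57.1 and 61.3 with IFN-γ, 54.4, 68.1 and 69.8 with Remodelin, and 50.5, 62.9 and 66.4 with both. The groups overlapped throughout, and the group means lay between 59.7 and 64.1 CPM. Its average Remodelin effect was 0.04 ± 0.11 on the log2 scale (SE, adjusted p = 0.86), with a 95% interval of -0.20 to 0.27, and its average IFN-γ effect was -0.07 ± 0.11 (adjusted p = 0.83). Cpt2 was at 19.3, 22.9 and 19.8 CPM in control, 22.2, 20.3 and 22.6 with IFN-γ, 20.8, 23.7 and 18.3 with Remodelin, and 16.2, 19.3 and 17.6 with both. The 3 libraries with both agents were all below the 3 with IFN-γ alone, and the log2 fold change of -0.29 ± 0.16 did not pass the test (adjusted p = 0.367). Removing the GC trend gave -0.20 (adjusted p = 0.523).

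The regions before the starts of Cpt1a, Acadm and Acadvl are printed because they are the 3 of 9 member promoters (RefSeq, GRCm38.p6, 250 bases before the gene's start) that hold AGGTCA on either strand. This half-site is bound by PPAR and other nuclear receptors that are known to drive the pathway. It was present in 14.0% of 32851 promoter windows of the same length. The window of Cpt1a is chr19:3323051-3323300 (plus strand), that of Acadm is chr3:153944644-153944893 (minus strand) and that of Acadvl is chr11:70015429-70015678 (minus strand). Capitals mark the half-site or its reverse complement, 94 to 89 bases before the start of Cpt1a, 249 to 244 before Acadm and 87 to 82 before Acadvl.
Cpt1a: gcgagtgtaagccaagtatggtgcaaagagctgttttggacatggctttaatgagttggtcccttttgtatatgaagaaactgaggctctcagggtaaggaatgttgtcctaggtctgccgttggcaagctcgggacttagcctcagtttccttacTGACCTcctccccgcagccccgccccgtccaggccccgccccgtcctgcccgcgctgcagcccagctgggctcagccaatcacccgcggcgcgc
Acadm: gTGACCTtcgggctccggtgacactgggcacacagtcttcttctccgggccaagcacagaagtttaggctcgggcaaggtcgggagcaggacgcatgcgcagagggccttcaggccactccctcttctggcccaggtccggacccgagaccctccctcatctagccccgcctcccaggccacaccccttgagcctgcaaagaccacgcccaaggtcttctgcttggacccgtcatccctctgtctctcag
Acadvl: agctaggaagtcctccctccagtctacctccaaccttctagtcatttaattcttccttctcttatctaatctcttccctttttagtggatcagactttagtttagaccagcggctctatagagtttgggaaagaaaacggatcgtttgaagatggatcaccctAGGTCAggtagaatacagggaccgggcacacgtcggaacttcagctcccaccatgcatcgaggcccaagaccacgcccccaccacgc
The PPAR element, 2 copies of AGGTCA in direct repeat with 1 base of any kind between them, was found on either strand in 0 of the 9 windows and in 0.0335% of all windows. A GC box (GGGCGG) was in 7 of 9, all but Acadm and Acadvl, and in 32.7% of all windows. The half-site matches overlap neither motif. The 3 genes with a half-site did not share a direction: their average Remodelin effects were 0.04 for Cpt1a, 0.27 for Acadm and -0.05 for Acadvl, and none passed the test.

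None of the 4 acyl-CoA dehydrogenases passed the test. Acadm, the medium-chain enzyme, was at 28.4, 23.4 and 24.5 CPM in control, 27.1, 24.1 and 31.9 with IFN-γ, 25.9, 27.9 and 31.6 with Remodelin, and 48.6, 28.7 and 31.6 with both. Library 1 of the group with both agents stood apart, and the other 11 libraries ran from 23.4 to 31.9. Its log2 fold change for both agents against IFN-γ alone was 0.39 ± 0.19 (adjusted p = 0.329), and without that library it was 0.14 (adjusted p = 0.737). The average Remodelin effect was 0.27 ± 0.14 (adjusted p = 0.212), and 0.17 without the same library. Its average IFN-γ effect was 0.24 ± 0.14 (adjusted p = 0.473), and 0.10 without that library. Acadl, the long-chain enzyme, was at 94.8, 87.5 and 88.9 CPM in control, 97.0, 95.9 and 102.5 with IFN-γ, 98.4, 100.9 and 104.7 with Remodelin, and 128.3, 97.0 and 110.0 with both. Its 3 control libraries were the lowest of the 12, below all IFN-γ and all Remodelin libraries. The average Remodelin effect was 0.17 ± 0.10 (adjusted p = 0.254), or 0.01 once the GC trend was removed. Its average IFN-γ effect was 0.13 ± 0.10 (adjusted p = 0.573), and 0.07 without library 1 of the group with both agents.

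Acads, which takes short chains, was at 82.9, 94.6 and 119.4 CPM in control, 93.3, 107.1 and 82.8 with IFN-γ, 113.9, 90.4 and 83.5 with Remodelin, and 70.8, 76.3 and 80.2 with both. The libraries with both agents were below all libraries of each single agent and of control. The log2 fold change was -0.32 ± 0.17 against IFN-γ (adjusted p = 0.354) and -0.34 ± 0.17 against Remodelin (adjusted p = 0.655), and these values were -0.08 and -0.14 once the GC trend was removed. Without Remodelin library 1 the second was -0.20. Acadvl, the membrane-bound enzyme for very long chains, was at 36.0, 42.5 and 45.0 CPM in control, 44.3, 44.2 and 35.6 with IFN-γ, 50.6, 40.7 and 33.7 with Remodelin, and 42.3, 36.2 and 36.3 with both. Its groups overlapped, and the average Remodelin effect was -0.05 ± 0.12 (adjusted p = 0.826). Exons of Acadvl share 1151 annotated bases with Dvl2 on the opposite strand, which had 212 to 523 reads. The sources used here do not state the strand setting of the counting, so the split between these 2 genes is uncertain.

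**Figure D3:**
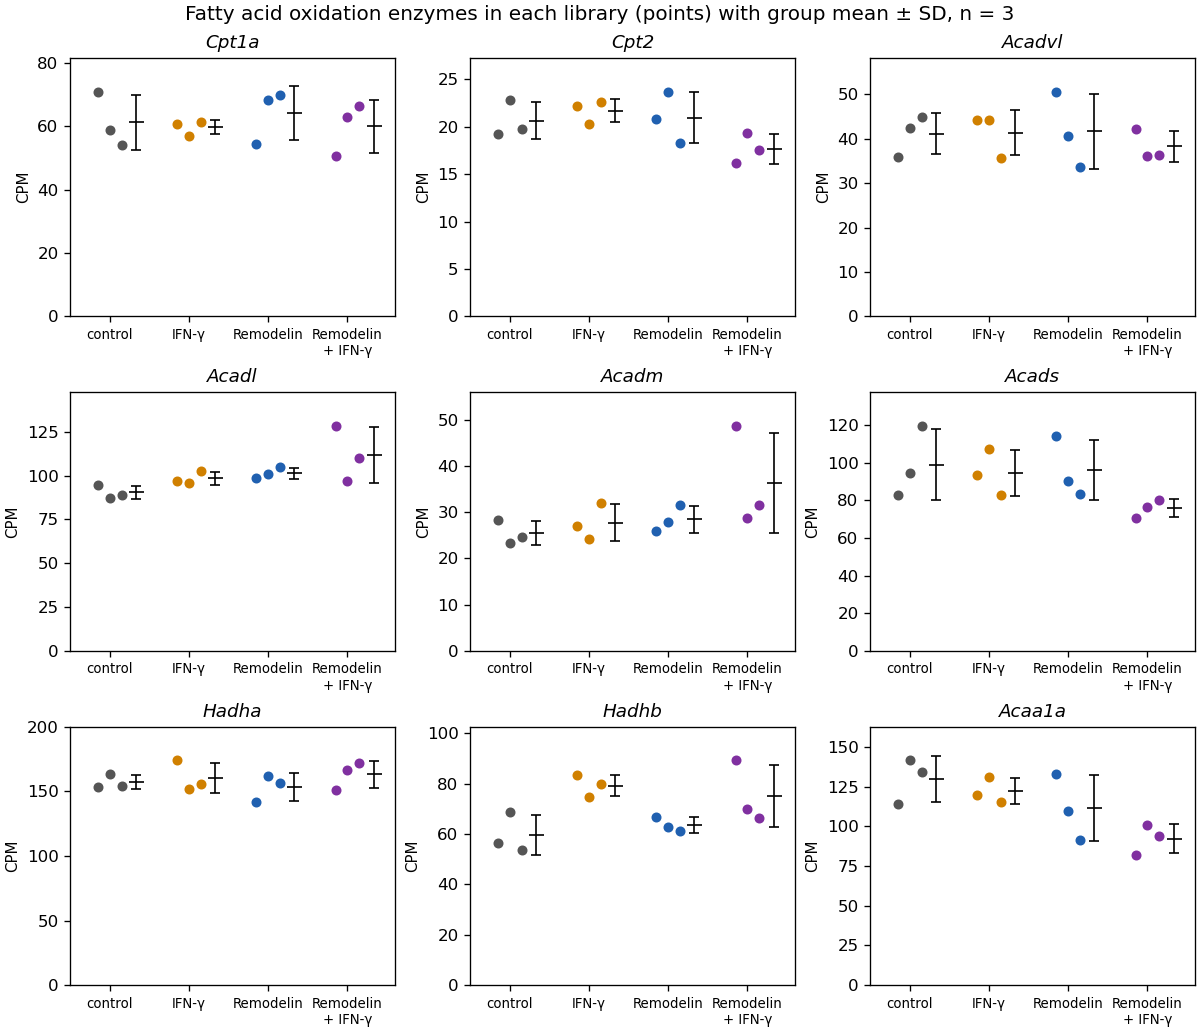
CPM of each enzyme in every library (points, axis from 0), with the group mean and SD at the right of each group, n = 3. Acads and Acaa1a are lowest in the group with both agents, Hadhb is higher in the IFN-γ libraries than in the control libraries, and library 1 with both agents stands apart for Acadm at 48.6 CPM.

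Hadha and Hadhb encode the alpha and beta subunits of the trifunctional protein, which work as 1 complex. Hadha varied least of the 9 enzymes, at 153.6, 163.3 and 154.4 CPM in control, 174.1, 151.9 and 155.7 with IFN-γ, 141.8, 162.1 and 156.6 with Remodelin, and 151.5, 166.9 and 171.7 with both. Its highest library was 1.23 times its lowest, and the average Remodelin effect was -0.00 ± 0.09 (adjusted p = 0.982, 95% interval -0.20 to 0.19). Hadhb was at 56.4, 68.7 and 53.6 CPM in control, 83.3, 74.6 and 79.8 with IFN-γ, 66.9, 62.7 and 61.1 with Remodelin, and 89.2, 69.8 and 66.3 with both. All 3 IFN-γ libraries were above all 3 control libraries. The log2 fold change was 0.41 ± 0.15 and did not pass the test (adjusted p = 0.889), and on the Remodelin background it was 0.24 ± 0.15 (adjusted p = 0.69), with overlapping groups. Without library 1 of the group with both agents the second value was 0.08 (adjusted p = 0.998). With the GC trend removed the values were 0.09 and -0.04. Hadhb had 37.8 ± 3.82 CPM per 100 CPM of Hadha in control and 49.4 ± 1.73 with IFN-γ, and 41.6 ± 4.83 with Remodelin and 46.5 ± 10.9 with both. Library 1 of the last group was at 58.9 and its other 2 libraries at 41.9 and 38.6. These ratios are as counted. With the GC trend removed, the average IFN-γ effect was 0.03 for Hadhb and 0.09 for Hadha, and the average Remodelin effect was -0.21 and 0.05. The table also lists a Hadhb pseudogene, Hadhb-ps, with 368 to 514 reads in a library, beside 987 to 1471 for Hadhb, so the reads of Hadhb are uncertain to that extent.

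Both genes start from the same stretch of chromosome 5 in opposite directions, with 272 bases between their starts, and their upstream windows share 228 bases. The window of Hadhb, chr5:30155003-30155252 (plus strand, GRCm38.p6, RefSeq), is printed as the shared promoter of this pair. As counted, the ratio of the pair was not constant across libraries, and it was not computed with the GC trend removed.
Hadhb: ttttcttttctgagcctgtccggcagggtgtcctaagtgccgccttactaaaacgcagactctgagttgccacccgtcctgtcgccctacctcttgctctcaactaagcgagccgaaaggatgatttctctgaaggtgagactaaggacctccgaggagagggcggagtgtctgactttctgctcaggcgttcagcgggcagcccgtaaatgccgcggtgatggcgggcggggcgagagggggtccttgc
It is all in lower case because it holds no AGGTCA. It has GGGCGG at 90 to 85 and at 25 to 20 bases before the start of Hadhb. An interferon element, 2 copies of GAAA with 2 bases of any kind between them, was searched on both strands and found in 0 of 9 member windows and 2.98% of all windows.

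Acaa1a, the peroxisomal thiolase, was the member nearest to a call. It was at 113.7, 141.4 and 133.9 CPM in control, 119.9, 131.0 and 115.0 with IFN-γ, 133.0, 109.9 and 91.6 with Remodelin, and 82.2, 100.6 and 94.0 with both. All 3 libraries with both agents were below all IFN-γ and all control libraries, while the groups with and without Remodelin overlapped in the absence of IFN-γ. The log2 fold change was -0.22 ± 0.16 for Remodelin against control (adjusted p = 0.556), -0.40 ± 0.16 with IFN-γ present (adjusted p = 0.228) and -0.31 ± 0.11 on average (adjusted p = 0.0944, 95% interval -0.54 to -0.08). The first of these was -0.09 without Remodelin library 3, -0.36 without Remodelin library 1 and -0.08 with the GC trend removed. Without Remodelin library 1, the highest of its group, the average effect was -0.38 and passed the test (adjusted p = 0.0263). Removing the GC trend gave -0.15 (adjusted p = 0.315). The near-identical gene Acaa1b had 0 to 13 reads in a library, and 290 annotated exonic bases are shared with Myd88 on the opposite strand, which had 638 to 1025 reads.

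Groups did not overlap for 1 of 9 enzymes in Remodelin against control (Acadl, 16.4% of all tested genes), for 3 in both agents against IFN-γ alone (Cpt2, Acads and Acaa1a, 27.7%), for 2 in IFN-γ against control (Acadl and Hadhb, 17.7%) and for 1 in both agents against Remodelin alone (Acads, 9.48%). All 6 Remodelin libraries lay beyond the other 6 for 0 of 9 enzymes (4.66% of all genes), and the 6 IFN-γ libraries for 0 of 9 (0.675%). For the interaction, the estimates of the members ran from -0.31 (Cpt2) to 0.23 (Acadm), and the lowest adjusted p of the 9 was 1.

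The estimates, none of which passed the test, are set here beside the GC content of the transcripts, with no test of a relation over the 9 genes. The 3 members below the median of tested genes (49.8% GC), Hadhb at 39.1%, Acadl at 45.1% and Acadm at 48.0%, had average Remodelin effects of 0.01, 0.17 and 0.27 and average IFN-γ effects of 0.33, 0.13 and 0.24. The most GC-rich, Acads at 59.7% and Acaa1a at 55.3%, had Remodelin effects of -0.18 and -0.31 and IFN-γ effects of -0.20 and -0.18. Hadha, Cpt1a, Cpt2 and Acadvl, at 51.3% to 53.7%, lay between -0.14 and 0.06 in both. With the GC trend of each library removed, the median size of the 9 average Remodelin effects went from 0.14 to 0.08 and that of the IFN-γ effects from 0.13 to 0.04. Acadm then had the highest values, at 0.21 and 0.17, and Hadhb had the lowest Remodelin effect, at -0.21. None passed the test in that fit either. The median size did not fall in every comparison. For Remodelin against control it rose from 0.07 to 0.12, and for IFN-γ against control it was 0.07 and 0.08. It fell from 0.18 to 0.08 for both agents against IFN-γ alone and from 0.24 to 0.12 for both against Remodelin alone. For the interaction it went from 0.17 to 0.13.

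**Figure D4:**
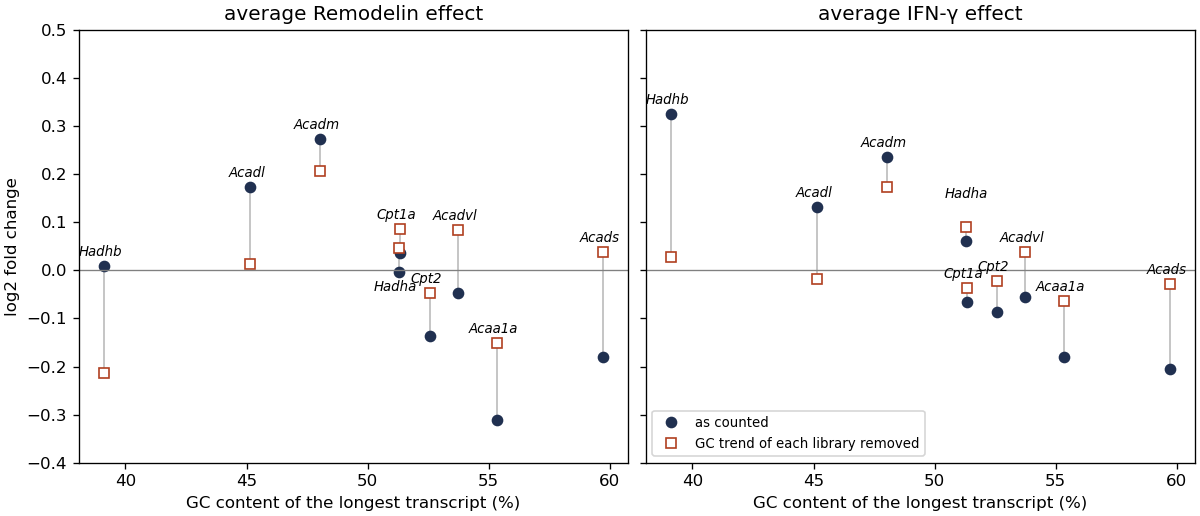
Average Remodelin and IFN-γ effects (log2) of the 9 enzymes against the GC content of their longest transcript, as counted (filled) and with the GC trend of each library removed (open). The filled points of the GC-rich Acaa1a and Acads lie below 0 and those of Acadl and Acadm above it in both panels, and their open points lie nearer to 0, while Hadhb moves to -0.21 in the Remodelin panel.

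Among themselves, the enzymes were compared by the root mean square difference of their log2 CPM, each gene centred over the 12 libraries. The differences formed a continuous run, with no pair set apart. The closest were Acads with Acaa1a (0.13), Cpt1a with Hadha (0.14) and Acadl with Acadm (0.14). Acadvl with Acads (0.16) and Acadl with Hadha (0.17) came next. The farthest were Acadm with Acaa1a (0.49) and Acadm with Acads (0.46). Against 8942 other genes with at least 5 CPM, Cpt1a was nearest to Fnbp1 (0.05), Manba (0.05) and Pfkfb3 (0.07), where the median gene was at 0.29. Acadvl was nearest to Echs1 (0.06), the mitochondrial enoyl-CoA hydratase, then Rgs3 (0.06) and Bcap31 (0.07). Hadha was nearest to Cdc42se2 (0.05), Ttc13 (0.05) and Arhgap25 (0.07). Genes that vary little are near to each other by this measure, and all points share the same libraries, depth and GC trend.

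Few other genes of the pathway passed the test. Of 85 further genes in 7 lists, 75 were tested, and Remodelin on average raised 1 and lowered 2 of them, or 4.0%. Of all tested genes 7.04% were called, 2.24% higher and 4.8% lower. The median of the 75 was -0.03. In the rest of mitochondrial beta-oxidation 18 of 19 were tested, 1 was higher and 0 lower (median 0.04). The carnitine-acylcarnitine translocase Slc25a20 was at -0.10 ± 0.10 (adjusted p = 0.521), the short-chain hydroxyacyl dehydrogenase Hadh at -0.19 ± 0.11 (adjusted p = 0.282), the thiolase Acaa2 at -0.25 ± 0.12 (adjusted p = 0.199) and Etfdh, which passes the electrons to ubiquinone, at 0.37 ± 0.13 (adjusted p = 0.0884). Slc25a20 was as even as Hadha, at 27.8 to 33.1 CPM over the 12 libraries. The gene called was Acad11, an acyl-CoA dehydrogenase of low abundance, at 4.35 to 5.00 CPM in control, 5.99 to 6.57 with IFN-γ, 6.41 to 7.86 with Remodelin and 7.22 to 8.80 with both. It rose by 0.48 ± 0.13 on the log2 scale (adjusted p = 0.0381).

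Of 14 regulators 11 were tested, with 0 higher and 1 lower (median -0.15). The gene that fell was Mlycd, malonyl-CoA decarboxylase, which removes the inhibitor of CPT1. It was at 30.0, 43.3 and 40.8 CPM in control, 38.6, 39.2 and 34.0 with IFN-γ, 30.7, 29.5 and 26.9 with Remodelin, and 22.2, 28.4 and 23.8 with both. Only control library 1 reached into the Remodelin range. It fell by 0.49 ± 0.12 on the log2 scale (adjusted p = 0.022). Ppard was at 0.15 ± 0.16 (adjusted p = 0.549) and Ppargc1b, at 0.81 to 1.77 CPM, at -0.15 ± 0.25 (adjusted p = 0.728). Ppara, the receptor that drives the pathway in liver, had at most 0.17 CPM in a library and was not tested.

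Fatty acid uptake and lipolysis had 11 of 11 tested, 0 higher and 1 lower (median -0.10). Slc27a4, a fatty acid transport protein with acyl-CoA synthetase activity, fell by 0.43 ± 0.12 on the log2 scale (adjusted p = 0.0449), and its 6 Remodelin libraries (27.3 to 44.8 CPM) lay below the other 6 (47.0 to 63.6 CPM). The scavenger receptor Cd36 was at 0.66 ± 0.20 (adjusted p = 0.0585), with 629 to 1066 CPM in libraries without Remodelin, 975 to 1333 in 5 of 6 with it and 2905 in library 1 with both agents. These 3 calls did not hold under every other setting. With the GC trend removed the values were 0.26 for Acad11, -0.27 for Mlycd and -0.25 for Slc27a4 (adjusted p = 0.229, 0.0862 and 0.116). Of 12 fits without 1 library, Mlycd kept the call only without control 1, IFN-γ 3, Remodelin 1, Remodelin 2 or combined library 2 (up to adjusted p = 0.0791 in the other 7). Acad11 kept it only without control 1, Remodelin 1, combined 1 or combined 2 (up to 0.101 in the other 8), and Slc27a4 only without control 1, Remodelin 1 or combined 2 (up to 0.147 in the other 9).

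The remaining lists had no call for Remodelin. They were acyl-CoA synthetases (4 of 5 tested, median 0.00), peroxisomal beta-oxidation (12 of 13, median 0.10), PPAR targets (5 of 9, median -0.13) and the TCA cycle (14 of 14, median -0.07). Among PPAR targets the lipid droplet protein Plin2 was abundant, at 1707 to 2720 CPM, with -0.20 ± 0.12 (adjusted p = 0.318), and the kinase Pdk4 had at most 0.20 CPM and was not tested. For the average IFN-γ effect 0 of 75 were called, beside 0.00742% of all genes, and 10 of 75 had an unadjusted p under 0.05 (12.9% of all genes), with a median of 0.02. Acaa2 was at 0.00 ± 0.12 and Hadh at 0.05 ± 0.11 for IFN-γ (adjusted p = 0.999 and 0.879).

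Markers of cells other than macrophages were low. Adipocyte markers summed to at most 0.452 CPM, with 2 of 5 at 0 reads in every library, T cell markers to at most 3.03 CPM and B cell markers to at most 6.93 CPM. Mesothelial markers summed to 92.1 to 125.0 CPM without Remodelin and 52.9 to 72.1 CPM with it. Of these markers 3 of 8 were called lower, where 4.8% of all tested genes were, and 5 of 8 estimates were below 0. Most of that difference was Upk3b, at 37.6 to 59.4 and 11.1 to 16.6 CPM, and the other 7 summed to 50.6 to 72.0 and 41.4 to 57.1 CPM, which overlapped. Upk1b alone did not overlap, at 10.1 to 16.1 and 7.17 to 9.81 CPM. Krt8, Krt18 and Msln had positive estimates of 0.43, 0.61 and 0.64 that did not pass the test (adjusted p = 0.122, 0.0758 and 0.188). Neutrophil markers summed to 45.8 to 55.1 CPM without Remodelin and 28.0 to 33.7 CPM with it (2 of 3 tested called lower, 4.8% of all tested genes). The 2 called were Mmp8 and Mmp9, while S100a8 overlapped, at 14.6 to 26.9 CPM without Remodelin and 13.4 to 22.9 CPM with it. The other 4 of 7 markers, S100a9, Ly6g, Camp and Ngp, were under 1 CPM in every library. Whether the share of neutrophils changed was not tested. The part of cells other than macrophages in the values of Mlycd, Acad11 and Slc27a4 was not tested. In the authors' deposited table, 0 of 9 enzymes had an adjusted p under 0.05 in any of 5 comparisons, and the lowest was 0.0659 for Acaa1a, for both agents against control (log2 fold change -0.46 in the authors' deposited table).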

How the data were processed

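RNA was extracted with Trizol and sequenced with Illumina protocols, per the labels' protocols. In the authors' deposited tables each gene has a raw count and an FPKM value per library, per the file headers. The deposited files also give the authors' own log2 fold changes and adjusted p-values. The submitters' processing notes list featureCounts 1.5.0-p3, HISAT2 2.0.5 and CASAVA 1.8 without saying what each was used for. The sources used here do not state the genome build, annotation or strand setting, so no coordinates of the table are printed. FPKM was used only for levels between genes.

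Counts were tested with edgeR 4.0.16 (quasi-likelihood, TMM, default count filter by group) in R 4.3.3, all 12 libraries in 1 fit with a mean per group, with Benjamini-Hochberg adjustment over 13474 genes. Values after ± are SE for log2 fold changes and SD for levels. Log2 CPM used a prior count of 2. Effective library sizes (totals scaled by TMM) of 15610750 to 19753856 put 3 counts at 0.152 to 0.192 CPM, for counting error only. GC content came from the longest GENCODE M21 transcript, matched for 99% of tested genes, and a lowess trend on it was removed per library in 1 alternative. Other alternatives were DESeq2 1.42.0, its size factors, limma-voom (limma 3.58.1), other count filters, a replicate block, only the compared groups, and each library left out. All 9 enzymes are named. Of the lists, 11 further genes were fixed, of which 1 is not reported here, and up to 4 called genes per list were added, and likeness was computed for Cpt1a, Acadvl and Hadha. Members and lists were chosen with earlier results of these data known. The test was also run on simulated counts with the same spread for all genes, 2-fold changes and no GC trend. That run does not bear on smaller changes or on libraries with a GC trend.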

Additional observations from a re-analysis of the deposited data

How the results depend on the processing

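The number of the 9 enzymes called stayed at 0 under every alternative run (the fit of only the groups compared was run for the 4 comparisons of single groups), except that leaving out each library in turn gave 0 to 1 for the average Remodelin effect (Acaa1a, without Remodelin library 1). Removing the GC trend also reversed some of the larger estimates, and the values that changed sign were not called before or after. For the average Remodelin effect, with the GC trend removed, and with the replicate block and the GC trend removed, Acadvl was at 0.083 and 0.070, Acads at 0.039 and 0.034, and Hadhb at -0.21 and -0.22. Hadha was at 0.047 and 0.046 in these, at 0.014 both with DESeq2 size factors and with DESeq2, at 0.022 with no count filter and at 0.0038 with a filter of 50 reads. For the average IFN-γ effect under the same 2 GC settings, Acadvl was at 0.038 and 0.032 and Acadl at -0.019 in both, and for IFN-γ on the Remodelin background Hadhb was at -0.037 and -0.031. Without 1 library, Remodelin effects ran from -0.0048 to 0.12 for Cpt1a, -0.13 to 0.019 for Acadvl, -0.025 to 0.053 for Hadha and -0.030 to 0.066 for Hadhb, and the IFN-γ effect of Acadvl from -0.12 to 0.026.

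As counted, no pairing by replicate number was seen. Of 18 same-numbered pairs, 5 had deviations correlated above 0.1 (-0.547 to 0.261), and 2 of 12 libraries correlated best with their own number. The GC trend, which differed within groups, was not removed in this check. The check therefore cannot decide whether the numbers mark a pairing. With the replicate block 0 of 9 enzymes were called, and 578 genes in all for the average Remodelin effect against 949. That block also ended the calls of Acad11 and Slc27a4 (adjusted p = 0.0722 and 0.0586). Acad11 was also lost with no count filter (adjusted p = 0.058) and Slc27a4 with DESeq2 size factors (adjusted p = 0.0552). With 3 libraries a group, intervals for Acadm, Acads, Cpt2 and Acaa1a reached beyond 1.5-fold for both agents against IFN-γ alone, so changes of that size were not resolved there.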
